A study of Sus scrofa with 30 samples.

Results

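The comparison set inverted against normal teats of the same pigs in teat epithelium. It used 10 of the 30 arrays of the series: for each of 5 affected animals, meaning animals with inverted teats, 1 array of epithelial tissue from an inverted teat and 1 from a normal teat. Every array was chosen by its tissue, teat and affection labels, and both arrays of an animal were paired through the animal number that opens the sample description. Each result is therefore a difference within an animal, and breed, age and everything else that both teats of a pig share drops out of it. The affected animals were 963, a German Landrace, 964, 1037 and 1059, crosses of Large White with German Landrace, and 1103, a Pietrain x (Large White x German Landrace) cross. All were peripubertal pigs of commercial dam lines slaughtered at a mean weight of 110 kg, no treatment is given for any of them, and teats were classed as inverted or normal by inspection and palpation. Epithelial tissue of normal teats of 5 non-affected animals, 950, 957, 1040, 1058 and 1109, is given beside the results as a reference level and was not part of the paired test. RNA was measured on Affymetrix Porcine Genome arrays, on which a probe set is a group of short oligonucleotides against 1 transcript. All levels below are log2 values, and a difference of 1 stands for 2 times the signal.

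An inverted teat does not stand out from the udder surface: its tip is drawn inward, piglets cannot grasp it, and the milk behind it is lost to them. The disposition is inherited in pigs. A teat is built from the epidermis of its surface, a canal, ducts lined by luminal epithelium, and a core of connective tissue. The core holds smooth muscle, vessels and nerves, and resident leukocytes in it guard the opening of the gland. In the mouse embryo the epithelial hormone PTHLH and its mesenchymal receptor PTH1R, together with Wnt signals acting through LEF1 and with homeobox genes such as MSX1, turn the skin above the mammary bud into a nipple. The samples here come from grown animals, long after that step.

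The 10 arrays were alike in scale. Their medians lay between 5.76 and 5.88, the 30th percentile, which served as the limit of low signal, between 4.61 and 4.79, and the median correlation of an array with the other 9 between 0.902 and 0.935. Each of the 10 correlated better with the remaining epithelial arrays of the series than with its mesenchymal arrays. The luminal keratins KRT8, KRT18 and KRT19 averaged 9.37 to 10.66 on 9 of the arrays and 6.75 on that of the inverted teat of animal 1103, against 10.25 in its normal teat. The wider luminal and milk list does not tell the tissues apart in every animal. It stood at 7.59 to 8.96 in the mesenchymal pieces of animals 963 and 964 and at 7.81 to 8.25 in their epithelium. A high level of that list is therefore no check of the tissue label. On the array of the inverted teat of animal 1103 the luminal and milk list had a mean of 3.96, against 6.10 to 8.25 in the other inverted teats, and the smooth muscle list 9.62 against 8.18 to 8.46. It still correlated better with the other 14 epithelial arrays (median r = 0.901) than with the 15 mesenchymal ones (0.874). Animal 1103 also had the widest spread of teat differences: 1655 of 17060 probe sets differed by more than 1 between its teats, against 198 in animal 963, 203 in 1037, 267 in 1059 and 555 in 964. For many of the genes and lists in which animal 1103 stood apart, the value without it is given.

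**Figure D1:**
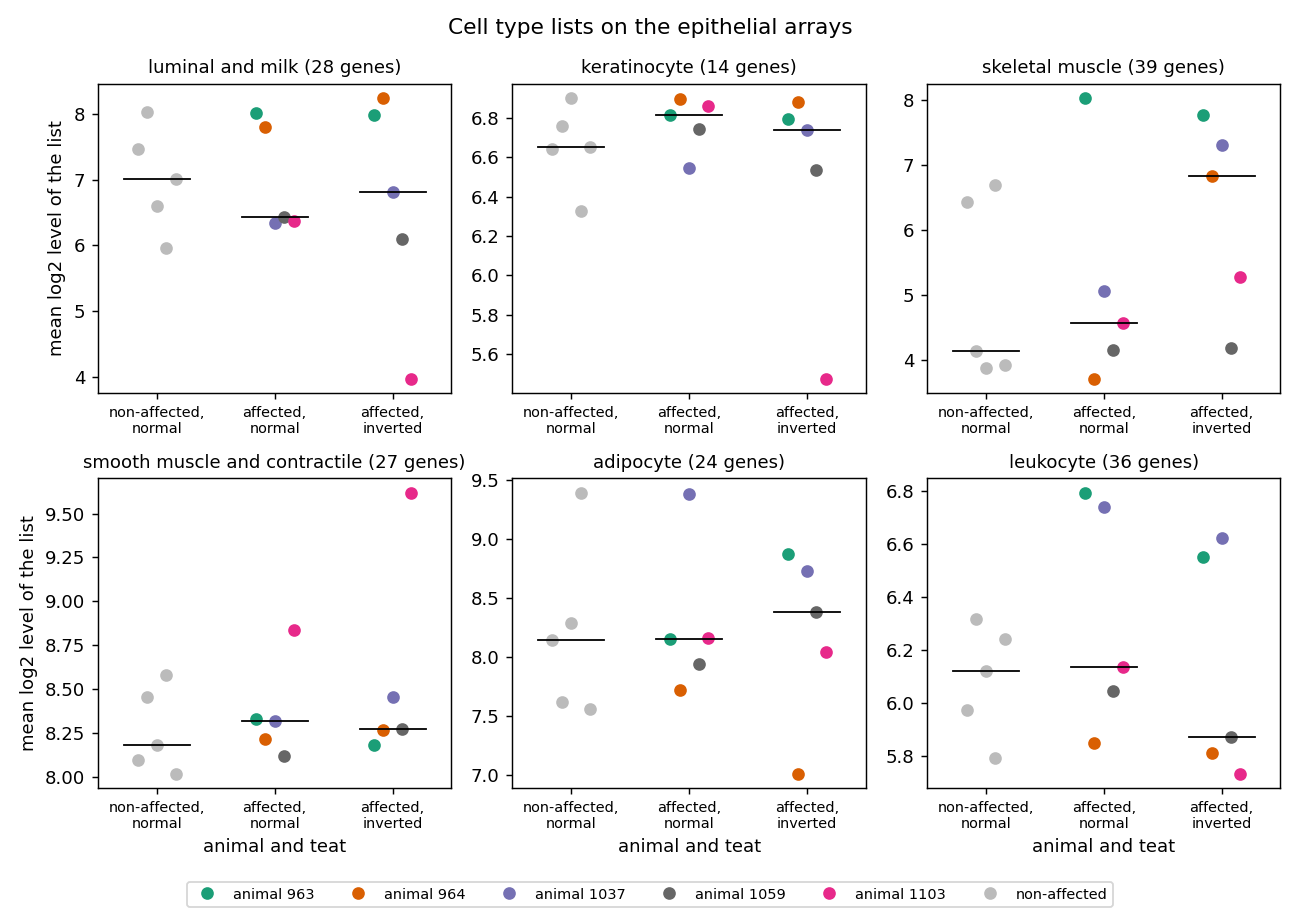
Mean log2 level (vertical axes) of the genes of 6 cell type lists on each of the 15 epithelial arrays, with coloured points for the affected animals, grey points for the non-affected ones and a bar at the group median. In inverted teats the point of animal 1103 lies lowest for luminal and keratinocyte genes and highest for smooth muscle genes, and skeletal muscle genes range from 4.19 to 7.78.

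No gene passed the threshold. Of 17060 probe sets tested with limma with the animal as a block, 0 (0.0%) had an adjusted p under 0.05, and the smallest adjusted p was 0.902. An unadjusted p under 0.05 was reached by 684 probe sets (4.01%), where 5% is what that limit admits if nothing differs; 402 had higher and 282 lower values in inverted teats. With 5 animals the exact sign-flip test on a single gene cannot go below p = 0.0625, two-sided. The differences of the animals had little in common: over the 10 pairs of animals their correlation across probe sets ran from -0.21 to 0.18. Reduced to 5906 named genes, 86 (1.46%) had an unadjusted p under 0.05 with higher and 131 (2.22%) with lower values in inverted teats, and 121 (2.05%) were higher and 355 (6.01%) lower in 5 of 5 animals. The median gene difference was -0.04. These shares are the background for the counts in the gene groups that follow, in which "higher" and "lower" describe the measured values and no gene is called changed.

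**Figure D2:**
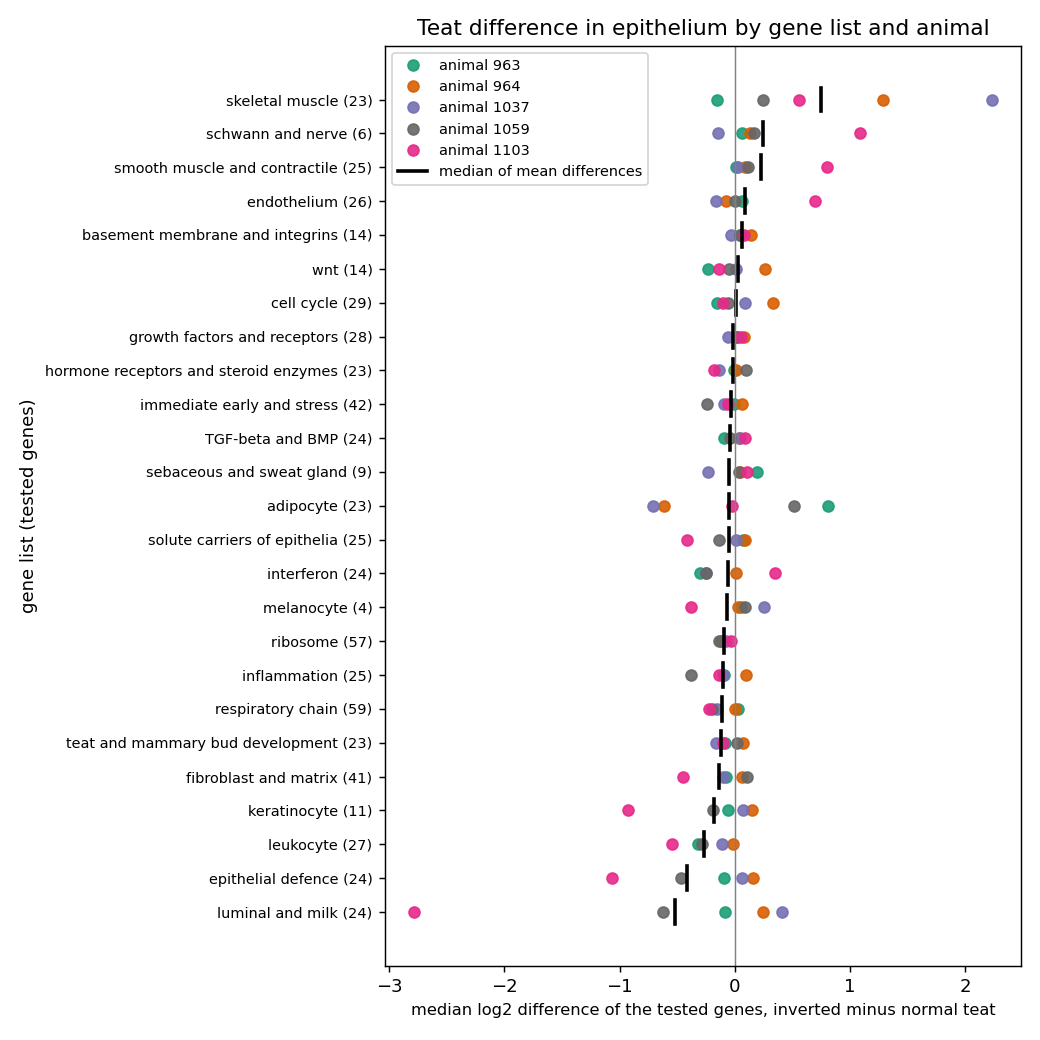
Median log2 difference, inverted minus normal teat (horizontal axis), of the tested genes of each of 25 lists (rows, with the number of genes) in each animal (coloured points); the black bar is the median over genes of the mean difference. The leukocyte points lie at or below 0 in all 5 animals, the adipocyte points lie on both sides, and the low luminal and high nerve, smooth muscle and endothelial points belong to animal 1103.

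Leukocyte genes formed the cell type list with a negative median difference in every animal. Of 36 members on the array 27 passed the level filter, and 20 of the 27 were lower and 7 higher, with a median difference of -0.27. By animal the median was -0.32, -0.01, -0.11, -0.29 and -0.55 in animals 963, 964, 1037, 1059 and 1103, and the median of all 5906 genes was -0.08, 0.11, -0.06, -0.10 and -0.07. All series of 5 values below follow this order. An unadjusted p under 0.05 was reached by 8 of the 27 (29.6%) with lower and by 1 with higher values, beside 2.22% and 1.46% of all genes, and 6 of the 27 (22.2%) were lower in 5 of 5 animals, beside 6.01%. Over all 36 members, with no level filter, 26 were lower, 7 of them in 5 of 5 animals, and the median was -0.22. Without animal 1103 the median was -0.15, and 8 of the 27 were lower in all 4 remaining animals, beside 9.23% of all genes. With the animal left out of the model as a block, 0 members reached that p with lower values. The mean level of the 36 genes was 6.80, 5.85, 6.74, 6.04 and 6.14 in normal and 6.55, 5.81, 6.63, 5.87 and 5.73 in inverted teats, and 5.79 to 6.32 in the non-affected animals, so the levels ranged more widely between animals than between the teats of any of them. Skeletal muscle genes in animals 964 and 1037 and luminal genes in animal 1103 also differed between the teats, as given below, and their part in the leukocyte values was not tested.

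The members with the smallest p were TYROBP and FCGR3A. TYROBP, the signalling adaptor of myeloid receptors, measured 8.67, 7.04, 8.48, 7.93 and 7.95 in normal and 8.12, 6.77, 8.26, 7.42 and 7.33 in inverted teats. Every inverted teat lay below the normal teat of its animal, while the groups overlapped because animals 963 and 1037 were high in both teats; the mean difference was -0.44 ± 0.11 (SE, n = 5 animals). FCGR3A, a receptor for the Fc part of immunoglobulin G, measured 9.43, 7.43, 9.35, 8.06 and 8.23 in normal and 8.76, 7.30, 9.03, 7.59 and 7.69 in inverted teats. Its difference was -0.43 ± 0.12, again lower in 5 of 5 animals, with the smallest step in animal 964. Both genes were named by their small p, which makes a shared direction likely; the members in the next paragraph were chosen after their values were seen.

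FCER1G, the chain through which Fc receptors signal, differed by -0.48 ± 0.15 and was lower in 4 of 5 animals. CD14, the co-receptor for bacterial lipopolysaccharide, measured 6.73, 5.58, 6.68, 5.37 and 4.88 in normal and 6.46, 5.30, 6.51, 4.11 and 4.23 in inverted teats. It was lower in 5 of 5 animals, with a mean difference of -0.53 ± 0.17, and 2 of its inverted teat values lay under the limit of low signal. AIF1, a calcium-binding protein of macrophages, differed by -0.40 ± 0.16 and was lower in 4 of 5. The class II genes of the pig, whose products present antigen to helper T cells, stood at high levels and differed less. SLA-DRA measured 11.48, 9.86, 10.98, 10.26 and 9.80 in normal and 11.15, 9.65, 10.89, 9.57 and 9.52 in inverted teats, a difference of -0.32 ± 0.12, and SLA-DQB1 differed by -0.27 ± 0.11; each was lower in 5 of 5 animals. CD74, the chain that escorts class II molecules, did not follow them, at 0.04 ± 0.17. JCHAIN, the joining chain of secreted antibodies and so a product of plasma cells, had the widest step of the list with -1.09 ± 0.37, lower in 4 of 5 animals.

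T cell genes went both ways. The receptor subunits CD3E and CD3D were chosen after their values were seen. CD3E differed by -0.58 ± 0.31 and CD3D by 0.47 ± 0.18, the latter higher in 4 of 5 animals, with normal teat means of 5.27 and 4.87 that are near the limit of low signal. CD2, CD3G, CD4 and PTPRC, the general leukocyte antigen, did not pass the level filter. GMFG, an actin regulator of blood cells that stands on no list here, measured 8.10, 6.97, 8.13, 7.09 and 7.37 in normal and 7.40, 6.54, 7.90, 6.36 and 6.91 in inverted teats. It had one of the smallest p of all lower genes, with a difference of -0.51 ± 0.11, but its other probe set, which lay below the level filter, gave 0.19. CASP1, the protease that matures interleukin-1 beta, measured 7.09, 5.25, 7.35, 5.66 and 5.86 in normal and 5.94, 5.16, 7.04, 4.62 and 4.86 in inverted teats and differed by -0.72 ± 0.18. In both genes every inverted teat was below its normal partner and the groups overlapped.

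CXCL9 and CCL5, both chemokines, were the members of the inflammation list with the smallest p. CXCL9, which interferon gamma induces and which attracts activated T cells, measured 8.76, 6.13, 8.56, 6.57 and 6.56 in normal and 7.83, 5.57, 8.36, 5.37 and 4.68 in inverted teats. Its difference was -0.95 ± 0.23, with a confidence interval of -1.49 to -0.42 at the 95% level and lower values in 5 of 5 animals, from -0.20 in animal 1037 to -1.87 in animal 1103. CCL5, made by T cells and others, measured 7.22, 5.48, 7.28, 4.90 and 6.15 in normal and 7.03, 5.00, 6.72, 4.45 and 5.33 in inverted teats and differed by -0.50 ± 0.12, also lower in every animal. The non-affected animals had 6.88 ± 0.75 for CXCL9 and 5.88 ± 0.61 for CCL5 (SD, n = 5), between the teat means of the affected animals for both genes.

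The inflammation list as a whole had a negative median in every animal but 964. By animal the medians were -0.09, 0.10, -0.10, -0.38 and -0.14, beside -0.08, 0.11, -0.06, -0.10 and -0.07 for all genes. Of its 25 tested members, CXCL9 and CCL5 included, 16 were lower and 9 higher, with a median of -0.10; 3 reached an unadjusted p under 0.05 with lower values, CXCL9, CCL5 and the mitochondrial superoxide dismutase SOD2 (-0.28 ± 0.12), and 1 with higher values, the chemokine CCL4 (0.32 ± 0.13, higher in 5 of 5 animals; both chosen after their values were seen). Of all genes, 2.22% reached that p with lower and 1.46% with higher values. With the animal left out of the model as a block, 0 members of the list reached it with lower values. With no level filter 2 of 34 list members reached it with lower values, beside 1.55% of all genes, and 0 with higher values. The epithelial chemokine CXCL16, also chosen afterwards, differed by -0.56 ± 0.24, lower in 5 of 5. The cytokine genes IL6, TNF and CXCL8 did not pass the level filter. Interferon response genes, 24 of them tested, had a median of -0.06 (-0.17 without animal 1103) with 16 lower and 8 higher and 0 past an unadjusted p under 0.05 in limma. IRF3, the sensor pathway's transcription factor, differed by -0.27 ± 0.12 and the RNA sensor DDX58 by -0.30 ± 0.16, the latter turning to 0.10 on its other probe set. DDX58 lay above the limit of low signal on 4 normal and 2 inverted teat arrays. In bulk tissue, fewer cells of a type and less RNA per cell cannot be told apart.

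**Figure D3:**
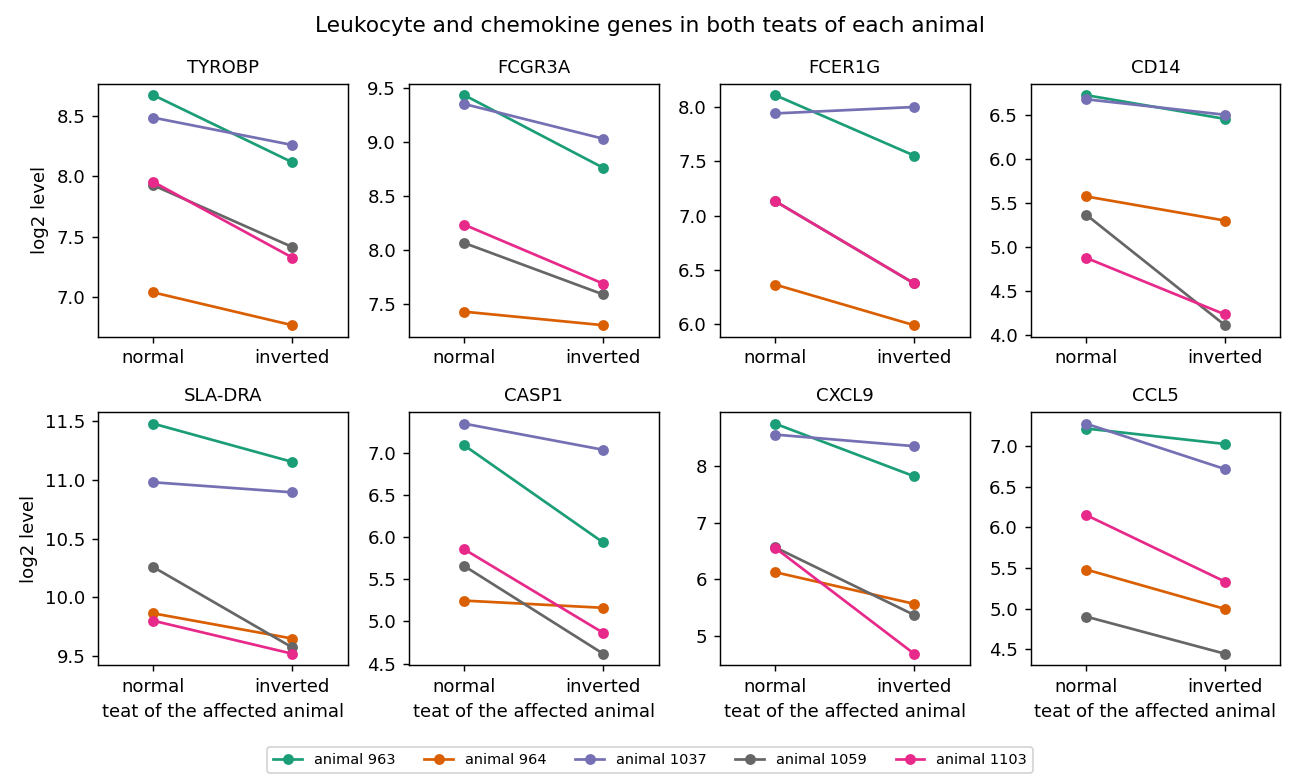
Log2 level (vertical axes, scaled per panel) of 8 leukocyte and chemokine genes in the normal and the inverted teat of each animal, joined by a line per animal. In TYROBP, FCGR3A, CD14, SLA-DRA, CASP1, CXCL9 and CCL5 all 5 lines run downward from normal to inverted, in FCER1G 4 of 5 do. The 8 genes were picked by small p or after their values were seen, which makes a shared direction likely. Of the tested genes, 7 of 27 on the leukocyte list and 9 of 25 on the inflammation list were higher in inverted teats.

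Skeletal muscle transcripts had higher values in the inverted teat, with far larger differences that not all pigs shared. Of 39 members on the array 23 passed the level filter, and 20 of the 23 were higher in inverted teats, with a median of 0.75; over all 39 genes, filter or not, 34 were higher with a median of 1.22. By animal the median of the 23 was -0.16, 1.29, 2.23, 0.25 and 0.56. An unadjusted p under 0.05 was reached by 10 of the 23 with higher and 0 with lower values, and 4 were higher in 5 of 5 animals, beside backgrounds of 1.46% and 2.05%. That count of 10 was 3 without animal 1037, 6 without animal 964 and 1 without the animal block.

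The mean of the 39 genes was 8.04, 3.71, 5.07, 4.16 and 4.57 in normal and 7.78, 6.84, 7.32, 4.19 and 5.28 in inverted teats. Animals 964 and 1037 had little muscle transcript in the normal and much in the inverted teat, animal 963 had much in both, animal 1059 had little in both, and in animal 1103 the mean was 4.57 in the normal and 5.28 in the inverted teat. Of the 23 tested genes 7, 17, 21, 14 and 21 were higher in the inverted teat by animal. The 5 non-affected animals covered 3.88 to 6.69, so a normal teat could also be high. MYL1, a fast myosin light chain chosen after its values were seen, measured 11.72, 0.00, 6.81, 3.78 and 3.87 in normal and 11.56, 9.81, 10.65, 4.91 and 5.43 in inverted teats, and is listed at 0 in the normal teat of animal 964. CKM, the creatine kinase of muscle and likewise chosen afterwards, measured 11.44, 4.61, 6.58, 5.39 and 6.57 in normal and 11.18, 8.97, 10.35, 5.64 and 8.36 in inverted teats. MYH2, the heavy chain of fast fibres, and MYLPF, a fast light chain, also chosen afterwards, had differences by animal of -4.81, 6.31, 2.26, 1.15 and 4.25 and of -0.21, 9.61, 4.05, -1.28 and 5.33. MYL1 and CKM differed by more than 3 in animals 964 and 1037 and by less than 2 in either direction in the other animals, and the mean difference of CKM was 1.98 ± 0.68 (SE).

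The muscle genes with the smallest p were not those with the largest differences. ACTN2, the alpha-actinin of the sarcomere's Z disc, measured 6.33, 4.99, 5.50, 5.66 and 5.92 in normal and 6.98, 5.73, 6.01, 6.03 and 6.26 in inverted teats. It was higher in every inverted teat, with a mean difference of 0.52 ± 0.11 and a narrow range from 0.34 to 0.74, and the groups overlapped. MYH7, the myosin heavy chain of slow fibres, measured 4.99, 5.24, 5.42, 5.01 and 5.02 in normal and 5.32, 5.86, 5.93, 5.77 and 5.33 in inverted teats, a difference of 0.50 ± 0.11 in 5 of 5 animals. TCAP, a titin-binding protein of the Z disc chosen after its values were seen, was also higher in 5 of 5 with 0.33 ± 0.11. These 3 had positive differences even in animal 963, where the list had a negative median.

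MYOM1, a protein of the M band, measured 7.06, 3.94, 6.07, 5.97 and 6.79 in normal and 7.18, 6.59, 6.66, 6.31 and 8.49 in inverted teats and had the largest mean difference, 1.08 ± 0.36, of all tested genes higher in 5 of 5 animals. CAP2, an actin-binding protein found in striated muscle, differed by 0.64 ± 0.26. Its step was 1.90 in animal 1103 and 0.09 to 0.54 in the other 4, which averaged 0.32. The muscle transcription factors MYOD1 and MYF6 did not pass the level filter.

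**Figure D4:**
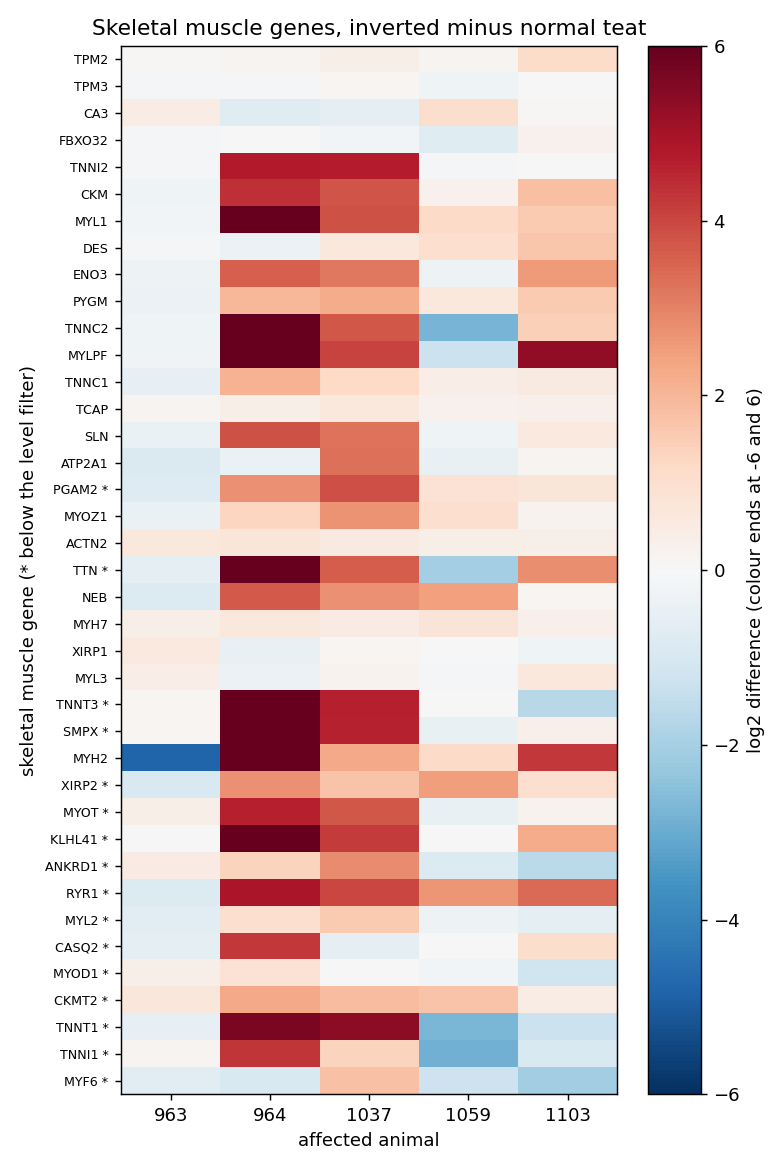
Log2 difference, inverted minus normal teat, of 39 skeletal muscle genes (rows, ordered by their level in inverted teats; an asterisk marks genes below the level filter) in the 5 animals (columns), red where the inverted teat was higher. The columns of animals 964 and 1037 are mostly red, that of animal 963 is mostly pale, that of animal 1103 has 21 of the 23 tested genes higher, and that of animal 1059 is mixed.

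Smooth muscle genes, which belong to the teat wall and its sphincter, were mostly slightly higher. Of 25 tested members 22 were higher, with a median of 0.23, but the animal medians were 0.01, 0.09, 0.03, 0.11 and 0.80, so most of its size came from animal 1103. Without that animal the median was 0.08, and 21 of the 25 were still higher. PDLIM3, a cytoskeletal adaptor of muscle, was the 1 member (4.0%, beside 1.46% of all genes) with an unadjusted p under 0.05, at 0.41 ± 0.17, and measured 9.04, 7.47, 7.28, 6.58 and 7.65 in normal and 9.05, 8.03, 8.27, 6.56 and 8.15 in inverted teats. TPM2, a tropomyosin that smooth and skeletal muscle share, differed by 0.36 ± 0.17 and was higher in 5 of 5 animals. The smooth muscle actin ACTA2 and transgelin TAGLN, chosen after their values were seen and both at high levels, differed by 0.11 ± 0.11 and 0.23 ± 0.19.

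Vessel and nerve genes followed animal 1103 as well. Endothelial genes were higher in 21 of 26 with a median of 0.09, and by animal the medians were 0.06, -0.08, -0.16, -0.0029 and 0.69; without animal 1103 the list median was -0.04. FLT1, a receptor for vascular endothelial growth factor, was the 1 endothelial gene (3.85%, beside 1.46% of all genes) with an unadjusted p under 0.05 and differed by 0.32 ± 0.13, higher in 5 of 5, although its other probe set, below the level filter, gave -0.40. CAV1, the coat protein of caveolae, differed by 0.20 ± 0.11. The 6 tested Schwann cell and nerve genes had animal medians of 0.06, 0.13, -0.14, 0.17 and 1.08, and without animal 1103 the list median was -0.08 instead of 0.25. SYT5, a synaptotagmin of secretory vesicles, measured 4.88, 5.54, 5.20, 4.89 and 4.56 in normal and 5.33, 5.85, 5.42, 5.47 and 5.85 in inverted teats, higher in every animal by 0.57 ± 0.17 on average, and MAL, a myelin protein also made in epithelia, differed by 0.30 ± 0.18.

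Genes of the epithelium itself were lower in the inverted teat of animal 1103 and, less so, of 1059, and had no common direction over the 5 animals. The luminal and milk list had 16 of 24 tested members lower, with a median of -0.52, and 0 past an unadjusted p under 0.05 in either direction in limma. By animal the medians were -0.09, 0.24, 0.41, -0.62 and -2.78, and without animal 1103 the list median was 0.06. KRT8, a luminal keratin, measured 11.11, 10.22, 9.88, 10.67 and 9.79 in normal and 10.96, 10.84, 10.77, 9.87 and 7.24 in inverted teats. It was higher in the inverted teat of animals 964 and 1037 and lower in the other 3; the mean difference of -0.40 ± 0.46 turned to 0.14 without animal 1103. GATA3, the transcription factor that maintains luminal cells, differed by -0.26 ± 0.28 and by 0.04 without that animal.

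LTF, lactoferrin, an iron-binding defence protein of milk, was the one member lower in 5 of 5 animals. It measured 8.39, 10.09, 9.28, 8.37 and 9.84 in normal and 8.09, 8.59, 8.25, 6.17 and 0.10 in inverted teats. The difference was -0.31 in animal 963 and -9.75 in animal 1103, where the inverted teat was close to 0, and the mean of -2.96 ± 1.27 was the largest negative one of all tested genes lower in 5 of 5 animals; without animal 1103 it was -1.26. LALBA, the whey protein that completes lactose synthase, was higher in 5 of 5, with a difference of 0.37 ± 0.16 at levels of 4.59 to 5.73 near the limit of low signal. CSN2, beta-casein, chosen after its values were seen, measured 15.06, 13.16, 4.40, 5.30 and 4.63 in normal and 14.80, 15.33, 4.66, 5.52 and 5.82 in inverted teats. Its level differed by animal, above 13 in both teats of animals 963 and 964 and under 7 in both teats of the others.

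Surface keratinocyte genes were lower in 9 of 11, with a median of -0.18 and animal medians of -0.06, 0.15, 0.07, -0.19 and -0.93. Without animal 1103 the direction turned, with a median of 0.01 and 7 higher and 4 lower. DSP, the desmosomal plaque protein desmoplakin, measured 8.93, 9.55, 7.91, 9.25 and 9.32 in normal and 8.92, 9.63, 8.59, 8.53 and 4.63 in inverted teats. Its mean difference of -0.93 ± 0.72 came from animal 1103 and was 0.0041 without it. CALML5, a calcium-binding protein of differentiating epidermis, differed by -0.25 ± 0.11 and was lower in 4 of 5. In the sebaceous list the desaturase FADS2 differed by 0.31 ± 0.14 and the fatty acid binding protein FABP5 by 0.22 ± 0.17, in the melanocyte list the pigment enzyme TYR by 0.20 ± 0.12 and its regulator MITF by -0.16 ± 0.14; none of the 4 reached an unadjusted p under 0.05 and their list medians were -0.05 (-0.25 to 0.19 with 1 animal left out) and -0.07 (0.10 without animal 1103).

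Secreted defence genes were lower in 20 of 24 tested members, with a median of -0.42. An unadjusted p under 0.05 was reached by 2 (8.33%) with lower and 1 (4.17%) with higher values, beside 2.22% and 1.46% of all genes. By animal the medians were -0.10, 0.16, 0.06, -0.47 and -1.07, so 3 of 5 animals had negative medians, and without animal 1103 the list median was -0.05. CHI3L1, a chitinase-like glycoprotein of macrophages and epithelia, measured 5.89, 5.36, 7.92, 5.39 and 4.92 in normal and 5.55, 5.34, 5.62, 4.57 and 3.80 in inverted teats and was lower in every animal, with a mean difference of -0.92 ± 0.30 and the widest step in animal 1037. TLR2, the receptor for bacterial lipoproteins, chosen after its values were seen, was lower in 4 of 5, with a difference of -0.77 ± 0.30. DEFB1, beta-defensin 1, was 1 of the 4 higher members and the 1 that reached an unadjusted p under 0.05 in limma. It measured 5.11, 4.96, 5.12, 5.00 and 4.99 in normal and 5.20, 5.24, 5.39, 5.33 and 5.35 in inverted teats. The groups did not overlap, although the difference was only 0.26 ± 0.10 and the levels lay just above the limit of low signal. Such a gap with inverted teats higher was found in 38 of the 17060 probe sets tested. The epithelial transporters SLC39A14 and SLC5A1, which carry zinc and glucose, differed by 0.26 ± 0.10 and -0.22 ± 0.11, and another probe set of SLC39A14 gave -0.12.

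Adipocyte genes differed between the teats of 4 animals, in opposite directions. The list median was -0.05, but by animal it was 0.81, -0.61, -0.71, 0.52 and -0.03, with 21, 2, 0, 19 and 10 of 23 tested members higher in the inverted teat. The inverted teat thus had more fat transcript than the normal teat in animals 963 and 1059 and less in animals 964 and 1037. LIPE, the hormone-sensitive lipase, chosen after its values were seen, measured 7.55, 7.44, 9.23, 6.94 and 7.53 in normal and 8.94, 5.70, 8.10, 7.52 and 7.65 in inverted teats. AGPAT2, an enzyme of triglyceride synthesis, and CFD, the adipocyte protease adipsin, were the members with the smallest p and departed from that pattern, lower in 5 of 5 animals with differences of -0.24 ± 0.10 and -0.21 ± 0.10. Animals 964 and 1037, with less fat transcript in the inverted teat, had the largest median skeletal muscle differences, 1.29 and 2.23. In animal 1103 21 of 23 tested muscle genes were also higher there, with a median of 0.56, while its adipocyte median was -0.03. Whether one goes with the other was not tested.

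Connective tissue genes had small mean differences. Of 41 fibroblast and matrix genes 29 were lower, with a median of -0.14, and 0 reached an unadjusted p under 0.05 in limma in either direction. Without animal 1103 the median was -0.0044, with 20 higher and 21 lower. MFAP2, a microfibril protein, differed by -0.35 ± 0.18, with 5 of 5 animals lower, and FBLN1, a fibulin of the basement membrane and elastic fibres, by -0.43 ± 0.25; in both animal 1103 stood apart, and without it they differed by -0.15 and -0.12. The collagens COL1A2 and COL3A1, chosen after their values were seen, differed by -0.33 ± 0.33 and -0.10 ± 0.12. Basement membrane and integrin genes had a median of 0.06, with the integrin ITGB1 at 0.26 ± 0.13 and the laminin LAMC1 at 0.21 ± 0.14, or -0.01 on another probe set.

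Genes that build the teat in the embryo were measured in grown teats as follows. Of 23 tested members of the teat and mammary bud list 15 were lower and 8 higher, with a median of -0.12, or -0.03 without animal 1103. An unadjusted p under 0.05 was reached by 0 in limma; beside 1.46% and 2.22% of all genes, a list of this size says nothing by that count. Without animal 963, 2 reached it with lower values, and without animal 964, 2 with higher values. PTHLH measured 8.19, 7.09, 6.75, 7.38 and 6.68 in normal and 7.51, 7.59, 7.07, 6.93 and 4.66 in inverted teats. The inverted teat was lower in animals 963, 1059 and 1103 and higher in the other two, and the difference of -0.47 ± 0.34 had a 95% interval of -1.27 to 0.34; without animal 1103 the difference was -0.08. Its receptor PTH1R differed by 0.19 ± 0.17, with an interval of -0.22 to 0.59. Both intervals hold 0 and also differences well away from it, so these data do not show equal levels in the teats.

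LEF1 differed by 0.08 ± 0.35, with an interval of -0.75 to 0.91, and turned to -0.20 without animal 964 and -0.15 without animal 1103. MSX1 differed by -0.33 ± 0.26 and by 0.18 on its other probe set, which lay below the level filter. Both were measured near the limit of low signal, at normal teat means of 4.35 and 5.03. BMP4, a growth factor of the bud mesenchyme in the mouse, differed by -0.29 ± 0.16, and WNT10B, a Wnt ligand of the bud epithelium, by -0.22 ± 0.12, each lower in 4 of 5 animals. WNT10B lay above the limit of low signal on 4 normal and 1 inverted teat arrays. It thus passed the level filter mainly through the normal teats, where it was higher. In the Wnt list of 14 genes 8 were higher and 6 lower, or 6 and 8 without animal 1103, with the receptor FZD6 at 0.25 ± 0.12.

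Growth factor and hormone lists held single genes with small p. INHBB, the beta B subunit of activin and inhibin, measured 5.04, 4.27, 4.94, 4.18 and 4.30 in normal and 5.55, 5.46, 4.98, 4.31 and 5.00 in inverted teats and was higher in 5 of 5 animals by 0.52 ± 0.18. It lay above the limit of low signal on 4 inverted and 2 normal teat arrays, so it passed the level filter mainly through the inverted teats. INHBB was the 1 of 24 TGF-beta genes (4.17%) with an unadjusted p under 0.05 and a higher value, beside 1.46% of all genes, and TGFBR3, the co-receptor betaglycan, differed by -0.29 ± 0.15. Among 28 growth factors and receptors FLT1, given above, alone reached that p (3.57%), and the heparin-binding factor MDK differed by -0.22 ± 0.12. Of 23 hormone receptors and steroid enzymes 2 (8.70%) reached that p, both with lower values, beside 2.22% of all genes. RARA, a retinoic acid receptor and the first of them, measured 4.90, 4.91, 5.27, 5.24 and 4.93 in normal and 4.08, 2.79, 4.92, 4.45 and 4.60 in inverted teats, lower in every animal, with a mean difference of -0.88 ± 0.26 and -2.12 in animal 964, at levels near or under the limit of low signal. It lay above that limit on 5 normal and 1 inverted teat arrays. RARA thus passed the level filter mainly through the normal teats, where it was higher, and the share of 8.70% rests in part on it. With no level filter 1 of 33 list members reached that p with lower values, beside 1.55% of all genes. HSD11B1, the other of the 2 tested members, regenerates active glucocorticoid. It measured 8.52, 9.33, 8.73, 8.41 and 9.91 in normal and 8.19, 8.91, 8.41, 7.86 and 7.04 in inverted teats. Its mean difference was -0.90 ± 0.37, with -0.55 to -0.32 in 4 animals and -2.86 in animal 1103, or -0.41 without it. ESR1, the oestrogen receptor, differed by -0.10 ± 0.20, or 0.13 without animal 1103.

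Stress and proliferation genes had medians near that of all genes. Of 42 immediate early and stress genes 29 were lower, with a median of -0.03. In each direction 2 (4.76%) reached an unadjusted p under 0.05, beside 1.46% of all genes with higher and 2.22% with lower values. DUSP6, the phosphatase that switches off ERK, measured 7.41, 7.26, 7.19, 6.91 and 7.54 in normal and 6.99, 6.77, 6.90, 6.52 and 7.21 in inverted teats and was lower in 5 of 5 animals, with a mean difference of -0.39 ± 0.10 and a narrow range from -0.49 to -0.29. ATF3, a stress-induced transcription factor, was higher in 5 of 5 by 0.50 ± 0.16, with 1.20 in animal 1103 and 0.33 without it. Cell cycle genes had a median of 0.01 over 29 members, with TYMS, which makes thymidylate, at 0.27 ± 0.13 and the kinase subunit CKS2 at -0.23 ± 0.13.

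The ribosome and respiratory chain lists had small negative medians. All 57 tested ribosomal protein genes had lower means in inverted teats, with a median of -0.10, and 31 of them were lower in 5 of 5 animals, beside 6.01% of all genes; 0 reached an unadjusted p under 0.05 in limma. With quantile normalization of the 10 arrays the median was -0.02, 40 were lower and 4 were lower in 5 of 5, so the count moved with the scaling of the arrays. RPL15 of the large subunit differed by -0.17 ± 0.09 and RPL26 by -0.25 ± 0.12. Respiratory chain genes were lower in 55 of 59 with a median of -0.11, or -0.09 after quantile normalization. By animal the medians were 0.03, 0.0014, -0.16, -0.20 and -0.23, and 33 and 30 of the 59 were higher in the inverted teats of animals 963 and 964. The complex I subunits NDUFB4 and NDUFA13 differed by -0.22 ± 0.10 and -0.21 ± 0.10.

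Outside the lists, the genes with the smallest p had small differences, some of them at levels near or under the limit of low signal. ZDHHC5, a palmitoyl transferase, measured 5.21, 5.85, 5.64, 5.62 and 4.27 in normal and 4.47, 5.00, 5.31, 4.91 and 3.67 in inverted teats. It lay above that limit on 4 normal and 3 inverted teat arrays. It had the smallest p of all named genes, and each inverted teat lay below its partner, with differences from -0.85 to -0.33 and a mean of -0.65 ± 0.11. WNK4, a kinase that controls ion transport, was lower in 5 of 5, with a difference of -0.42 ± 0.10. Among the higher genes CFAP161, a protein of motile cilia, measured 5.68, 5.72, 5.10, 5.72 and 5.53 in normal and 5.92, 6.13, 5.74, 6.10 and 6.14 in inverted teats, and MED9, a subunit of Mediator, measured 5.73, 5.85, 5.82, 5.80 and 5.60 in normal and 5.90, 6.23, 6.30, 6.08 and 6.26 in inverted teats. In both the groups did not overlap, though they nearly met, at mean differences of 0.46 ± 0.11 and 0.40 ± 0.11. Of the 17060 probe sets tested, 38 had every inverted above every normal teat and 22 the reverse. No result is read from such a gap in a single gene.

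CYP2E1, a cytochrome P450 of ethanol and fatty acid metabolism, was higher by 0.54 ± 0.13, ANKRD52, an ankyrin repeat protein, by 0.40 ± 0.10, and ZNF397, a zinc finger protein, by 0.73 ± 0.23. RABL3, a small GTPase, and WDR34, a dynein-2 subunit, were higher by 0.52 ± 0.13 and 0.39 ± 0.10, but other probe sets gave -0.01 and -0.22. ANKRD52 and RABL3 each lay above the limit of low signal on 5 inverted and 3 normal teat arrays. LETM1, an ion exchanger of mitochondria, had 0.87 ± 0.39, with 2.88 in animal 964. It lay above the limit of low signal on 4 inverted and 2 normal teat arrays. Among lower genes with large differences, the carbonyl reductase CBR1 had -1.64 ± 0.83, KMO, an enzyme of tryptophan breakdown, -1.28 ± 0.55, and the metalloreductase STEAP1 -1.10 ± 0.42. In these 3 the differences of animal 1103 were -6.01, -4.17 and -3.30, against -1.43 to -0.08, -0.95 to -0.16 and -0.80 to -0.27 in the other 4 animals, and without it the means were -0.55, -0.56 and -0.55.

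The same teat difference in mesenchymal tissue of the same 5 animals showed whether a pattern was common to both layers. The difference between tissues was tested within animals over 20 arrays: 0 of 18273 probe sets (0.0%) passed the adjusted threshold in limma. Among 6162 genes, 65 (1.05%) had an unadjusted p under 0.05 with epithelium minus mesenchyme above 0 and 162 (2.63%) with it below 0. The sign tells which tissue had the higher inverted minus normal value, not which had the larger difference in size. Of 37 skeletal muscle genes 35 were above 0 and 20 past that p, with a median of 2.64. In mesenchyme the medians of the teat difference by animal were -7.48, -0.57, 1.60, -0.17 and 0.22, and in animal 963 the mean level of the list was 10.45 in the normal and 3.67 in the inverted teat. Without animal 963 the median between tissues was 1.45, with 14 genes past that p, and without animal 964 it was 2.47, with 11.

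For the leukocyte genes a difference between the tissues was not established. In mesenchyme their medians by animal were -0.20, 0.16, 0.24, 0.26 and -0.59, on both sides of 0. Over the 31 genes tested in both tissues the median was -0.26 in epithelium and -0.04 in mesenchyme, and 2 genes had an unadjusted p under 0.05 for the difference with the lower value in epithelium, beside 2.63% of all genes (0 without animal 964, 1 without 1037 or 1059, 3 without 1103). TYROBP differed by -0.18 in mesenchyme, FCGR3A by -0.03, CXCL9 by 0.34 and CCL5 by 0.12. For the inflammation list, 5 of 26 genes passed that p with the lower value in epithelium, but 2 without animal 1059 and 3 without animal 964 or 1037. Luminal genes had medians of -0.33 in epithelium and 0.83 in mesenchyme over 26 genes. Their median between tissues of -1.26 was -0.40 without animal 1103.

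**Figure D5:**
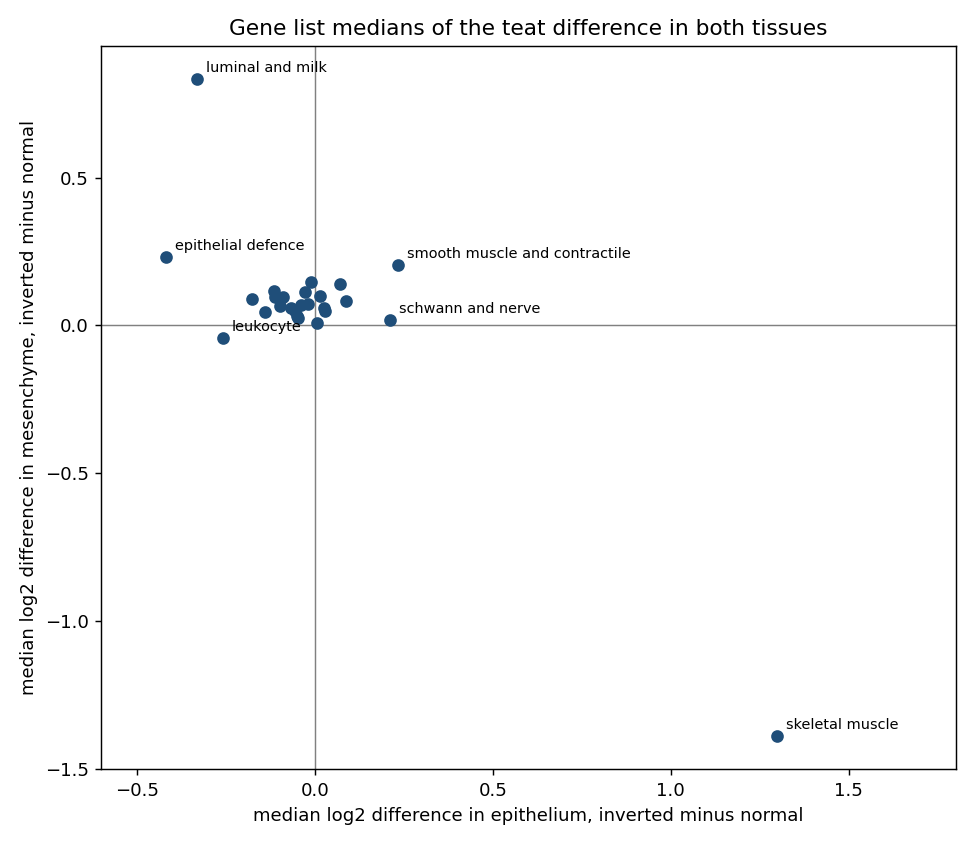
Median log2 teat difference (inverted minus normal) of 25 gene lists in epithelium (horizontal axis) and mesenchyme (vertical axis). Each point is 1 list, except for 1 point that stands for all 6162 genes tested. A label is given where either median exceeds 0.2 in size. Skeletal muscle lies at 1.30 in epithelium and -1.39 in mesenchyme, luminal genes lie on the opposite side, and most lists crowd around 0.

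Single genes with the smallest p for a difference between tissues were mostly of low level. The apolipoprotein APOA2, with 1.23 ± 0.22 (SE), and the calcium channel RYR1 of skeletal muscle, with 4.63 ± 0.96, lay above the limit of low signal on few epithelial arrays and had not been tested in epithelium alone. RYR1 measured 6.47, 0.00, 0.90, 0.81 and 0.00 in normal and 5.63, 4.89, 4.90, 3.47 and 3.40 in inverted teats in epithelium, listed at 0 in the normal teats of animals 964 and 1103. DEFB1, whose epithelial groups did not overlap, had 1.17 ± 0.25, with mesenchymal differences of -0.97, -0.60, -0.54, -0.52 and -1.89. More negative in epithelium were FAM114A1, a protein of unsettled function, with -0.62 ± 0.16, the metalloreductase STEAP4 with -1.53 ± 0.40 and the galectin LGALS8 with -0.82 ± 0.22. STEAP4 in epithelium measured 5.25, 4.54, 6.79, 5.67 and 6.45 in normal and 4.31, 5.13, 5.02, 5.05 and 4.60 in inverted teats; it was lower in the inverted teat of 4 of 5 animals there.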

How the data were processed

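RNA of 30 teat samples was hybridised to Affymetrix Porcine Genome arrays, 1 per sample, of which the 5 inverted and 5 normal teat arrays of affected epithelium were compared. The deposited values are log2 probe set summaries made by the authors; the base was inferred from their range, since no label states it, and GCOS 1.1.1 and PLIER are named, with no role, in the submitters' processing notes. They were used as deposited: 441 to 743 of the 24123 probe sets per array lie at 0, and whether arrays were normalised to each other is not given in the sources used here. The number of arrays limits the precision.

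Differences were tested with limma 3.58.1 in R 4.3.3 (lmFit and eBayes), with the animal as a fixed replicate block. P-values were adjusted by Benjamini-Hochberg and called under 0.05. The level filter kept probe sets that exceeded the 30th percentile of the array on 5 or more arrays of a fit, and 124 control probe sets were left out. Animals are separate pigs, so the spread is between animals. The pairing comes from the animal numbers, and was checked: after removal of group means, the r between both arrays of an animal was 0.15 to 0.29, and they correlated best with each other in 5 of 5 animals. The fits were tested on simulated data. Alternatives were no block, a random block, other filters, quantile or median scaling, a trend in the variance, an unmoderated test and each animal left out.

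Symbols are those of the platform annotation, looked up in RefSeq through Entrez IDs: 10069 probe sets had 1 symbol, 198 several and 13732 none here, and 9961 of the first were found in RefSeq. Where a gene had several probe sets, the one brightest on average over the 30 arrays stands for it. Coordinates are not given, since no genome was at hand. The gene lists and the genes to be named were chosen with earlier results of these data known. Named are the 8 genes per direction with the smallest p, the 6 per direction with the largest mean difference among those alike in 5 of 5 animals, 2 members per list with the smallest p, 7 genes of teat development, keratin and hormone action that were tested, and 3 per direction for the difference between tissues; a gene outside this rule is said to be chosen afterwards. Errors are the SE of the fit unless SD is stated.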

Additional observations from a re-analysis of the deposited data

Results flagged for a closer look

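Among 99 results with 5 values each, 18 had 1 animal set far apart from the other 4 (gap over range above 0.71). Chance gives about 1 in 20 for unrelated results that were not picked by their values. Some genes here were picked for large mean differences, and genes are counted beside the lists that hold them, so that rate is no measure for this set. In 15 of the 18 the animal was 1103, whose inverted teat array had low keratins. Its inverted minus normal differences were -9.75 for LTF, -6.01 for CBR1, -4.69 for DSP, -4.17 for KMO, -3.30 for STEAP1, -2.86 for HSD11B1, -1.65 for FBLN1, -1.17 for MFAP2 and -1.03 for ESR1. They were 1.90 for CAP2, 1.20 for ATF3 and 1.09 for TPM2. Its list medians were 1.08 for Schwann cell and nerve genes, 0.80 for smooth muscle genes and 0.69 for endothelial genes.

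The other 3 results belonged to other animals. LETM1 was 2.88 and RARA -2.12 in animal 964, and WNT10B was 0.21 in animal 963 with negative values in the other 4.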

How the results depend on the processing

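No probe set passed the adjusted threshold in either comparison under any alternative run with limma. In the pairing of teats, the number at an unadjusted p under 0.05 was 684 with the animal as a block, 763 with a random replicate block, and 250 (10 arrays) or 285 (15 arrays) with no replicate block. For the difference between tissues it was 704 and, with no replicate block, 168. With no filter on level the first count was 1054, over 23999 probe sets. Leaving out 1 animal gave 476 to 861, and 484 to 939 for the difference between tissues. Differences changed sign on another probe set for RABL3 (-0.015), WDR34 (-0.22), GMFG (0.19), FLT1 (-0.40), LAMC1 (-0.012), DDX58 (0.10), SLC39A14 (-0.12) and MSX1 (0.18). With 1 animal left out, DSP ranged from -1.34 to 0.0041, GATA3 from -0.45 to 0.042, KRT8 from -0.72 to 0.14 and ESR1 from -0.19 to 0.13, each above 0 without animal 1103 alone. LEF1 ranged from -0.20 without animal 964 to 0.37, with -0.15 without animal 1103. Over the named genes, 685 of the alternatives' values kept their direction and side of the threshold and 14 changed sign; the cause was not tested. Of list medians 193 moved by less than the spread between animals and 7 by more, among them the sebaceous list with -0.25 to 0.19 over animals left out. Values near the limit of low signal limit what can be said of the low genes.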
